A study of Mus musculus with 6 samples.

Results

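Gdpd3 and 6 protein-coding genes of the same stretch of mouse chromosome 7, Mapk3, Ypel3, Ppp4c, Coro1a, Kif22 and Taok2, were followed in RNA-seq of tumor-associated macrophages (TAMs). These 7 of the 55421 genes in the count table were taken by symbol, Gdpd3 because of its large difference between the genotypes compared here, and the others because of their position beside it. TAMs were collected 15 days after implantation of fibrosarcoma cells, which the labels name M17 and the methods MC17-51, from Pdcd1f/f mice and from Pdcd1f/fLysMcre mice, with 3 libraries for each genotype. Both genotypes carry the floxed Pdcd1 gene, which encodes PD-1, and the Pdcd1f/fLysMcre mice also carry Cre under the lysozyme promoter, which acts in myeloid cells. The mice were 8 to 12 weeks old at implantation, both sexes were used, and no agent was given to either group in the labels. TAMs were labelled as CD11b+F4/80+ cells, and the methods describe sorting of live CD45+CD11b+F4/80+Ly6G- cells for TAMs of mice with floxed Shp2, without stating the gate for the mice compared here. Nothing states whether each library came from a separate mouse or pool of mice, so the p-values below measure the spread between libraries, which may be technical.

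Gdpd3 encodes a glycerophosphodiester phosphodiesterase with lysophospholipase D activity. Enzymes of this kind remove the head group of a lysophospholipid and leave lysophosphatidic acid (LPA), a lipid that signals through G protein-coupled receptors and is also a substrate for building phospholipids. The genes around it have roles outside lysophospholipid metabolism, and their human counterparts lie together in a segment whose copy number varies between people. In a gene-dense stretch like this one, a count assigned to a gene can come from its own transcript or from a neighbour's transcript that runs on, and a change shared by linked genes can mark a chromosome segment that differs between the mice. The comparison below therefore asks whether the difference in Gdpd3 was shared along the chromosome.

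On GRCm38, with gene positions of GENCODE M21, Gdpd3 (ENSMUSG00000030703) spans 126766334 to 126775649 on the plus strand of chromosome 7. Mapk3, on the same strand, ends 514 bases before its start, and Ypel3, also on the plus strand, begins 1305 bases after its end. A noncoding gene on the opposite strand, Gm9967, overlaps 298 of the 2186 exonic bases of Gdpd3. The 250 bases before the RefSeq start of Gdpd3 (build GRCm38.p6, chr7:126766164-126766413, plus strand) are shown because they begin between the 2 genes, 344 bases beyond the annotated end of Mapk3, and run into the first annotated bases of Gdpd3, whose GENCODE start lies before the RefSeq one, and those before the start of Ypel3 (chr7:126776713-126776962, plus strand) because that gene differed in the opposite direction. CG dinucleotides are in capitals.
Gdpd3: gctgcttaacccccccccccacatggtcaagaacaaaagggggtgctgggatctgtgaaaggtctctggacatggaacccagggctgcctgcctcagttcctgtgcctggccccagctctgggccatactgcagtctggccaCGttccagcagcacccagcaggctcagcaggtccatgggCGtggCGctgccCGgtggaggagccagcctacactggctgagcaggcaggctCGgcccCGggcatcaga
Ypel3: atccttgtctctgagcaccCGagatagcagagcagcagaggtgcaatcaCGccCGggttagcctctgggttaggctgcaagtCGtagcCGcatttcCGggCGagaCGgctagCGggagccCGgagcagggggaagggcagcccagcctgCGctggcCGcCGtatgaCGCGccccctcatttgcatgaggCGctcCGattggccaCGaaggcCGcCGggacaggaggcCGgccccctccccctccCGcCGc
The Gdpd3 window held 6 CG dinucleotides, the median of the 32851 windows of this length in the RefSeq table, and 49.6% of windows held fewer. The Ypel3 window held 23, and 86.7% of windows held fewer. Windows were found for 6 of the 7 genes. Of 4 short motifs searched on both strands, the PU.1 core GAGGAA was in 23.3% of all windows, the AP-1 motif TGANTCA in 6.75%, the GC box GGGCGG in 32.7% and the TATA box TATAAA in 12.4%, and none of these letters was found in the window of Gdpd3 or of Ypel3.

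Gdpd3 was about 9-fold higher in Pdcd1f/fLysMcre TAMs. Pdcd1f/f replicates 1 to 3 held 76, 80 and 69 of its counts, and Pdcd1f/fLysMcre replicates 1 to 3 held 701, 789 and 718. After division by the size factor of each library, in the deposited normalized counts, these were 70.5, 89.4 and 75.6 against 649, 751 and 706. Every Pdcd1f/fLysMcre library lay far above every Pdcd1f/f library. The mean level was 78.5 ± 9.78 without Cre and 702 ± 51.5 with Cre (SD, n = 3 each). The log2 fold change was 3.17, with a standard error of 0.13 and a 95% interval of 2.88 to 3.45. On the linear scale this was 8.98-fold (7.37 to 10.9). The gene was chosen for this difference, so the values are a description and carry no test. It was the 4th largest increase among the 14469 genes tested. The log2 fold change lay between 3.03 and 3.27 in all 16 alternative fits. In this bulk RNA more cells that express a gene and more RNA per cell cannot be told apart.

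**Figure D1:**
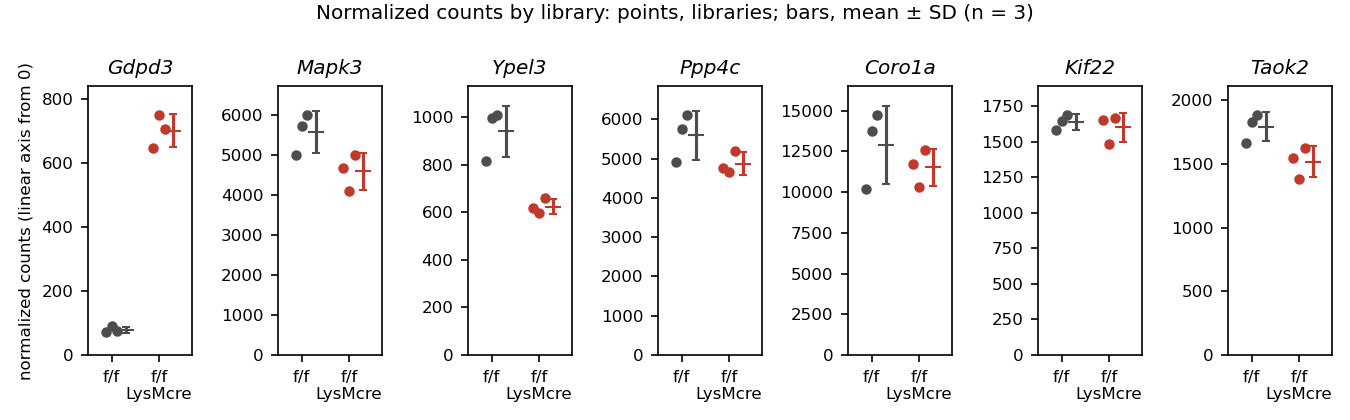
Deposited normalized counts (vertical axes, linear from 0, each gene on its own scale) of the 7 genes in the 3 Pdcd1f/f (f/f, grey) and 3 Pdcd1f/fLysMcre (red) libraries, plotted as points in the order of replicates 1 to 3, with the mean ± SD beside them. Gdpd3 alone is far higher in Pdcd1f/fLysMcre libraries (649 to 751 against 70.5 to 89.4), Ypel3 and Taok2 are lower without overlap, and the groups of the other 4 genes overlap.

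Mapk3, the gene just before Gdpd3, encodes the kinase ERK1 and was far more abundant. Its normalized counts in replicates 1 to 3 were 5002, 5720 and 6005 without Cre and 4663, 4103 and 5012 with Cre. The highest Pdcd1f/fLysMcre library just passed the lowest Pdcd1f/f library, and the means were 5576 ± 517 and 4593 ± 458 (SD, n = 3 each). The log2 fold change was -0.28 with a standard error of 0.09, which did not pass the threshold of 0.05 (adjusted p = 0.100 from edgeR's quasi-likelihood test over all 14469 genes, with Benjamini-Hochberg adjustment). Mapk3 passed in 6 of 16 alternative fits, always lower. Among these were DESeq2 (DESeq2 adjusted p = 0.0435) and the fit without a filter on low counts (edgeR adjusted p = 0.0097). Thus Mapk3 was not higher where Gdpd3 was. Set against the Mapk3 counts of the same library, Gdpd3 counts came to 1.41%, 1.56% and 1.26% without Cre and to 13.9%, 18.3% and 14.1% with Cre. The mean was 1.41% ± 0.152 against 15.4% ± 2.49 (SD, n = 3), a description that carries over the difference for which Gdpd3 was chosen. The Gdpd3 normalized counts added between the genotypes equalled 11.2% of the mean Mapk3 level in Pdcd1f/f TAMs. The counts are per gene and hold no reads across exon junctions or between the genes, so whether transcripts joined Mapk3 to Gdpd3 was not tested.

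Gm9967, the gene on the opposite strand, received 1, 1 and 0 counts without Cre and 2, 2 and 1 with Cre, and the filter on low counts left it out of the test. The libraries keep the strand of the RNA, but whether reads were counted by strand is not given in the sources used here. Its counts were thus near the limit of detection in every library, and 3 counts correspond to 0.0583 to 0.0717 CPM (counts scaled to a common library total) at these depths, for counting error only. Gdpd3 itself stood at 1.503, 1.91 and 1.601 CPM without Cre and at 13.6, 15.7 and 15.0 CPM with Cre.

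Ypel3, the gene just after Gdpd3, fell. It encodes a small zinc-binding protein of the yippee-like family that is known for slowing cell growth. Libraries without Cre held 818, 997 and 1011 of its normalized counts, and those with Cre 617, 598 and 660. The groups did not overlap, and the mean went from 942 ± 108 to 625 ± 31.6 (SD, n = 3 each). The log2 fold change was -0.59 with a standard error of 0.10 (0.665-fold, adjusted p = 0.00859 from edgeR). In 14 of 16 alternative fits Ypel3 passed as well. Without Pdcd1f/f replicate 2 its edgeR adjusted p was 0.0681, and without Pdcd1f/fLysMcre replicate 1 it was 0.0652.

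Ppp4c, the catalytic subunit of protein phosphatase 4, lies 10216 bases beyond Gdpd3 and is read from the minus strand. Its normalized counts were 4908, 5747 and 6113 without Cre and 4750, 4659 and 5203 with Cre. These groups overlapped, and the log2 fold change of -0.20 (standard error 0.09) did not pass the threshold (edgeR adjusted p = 0.197). Taok2, a kinase upstream of stress-activated MAP kinases, lies 90028 bases away. Its normalized counts were 1667, 1829 and 1887 without Cre and 1550, 1384 and 1626 with Cre. All its Pdcd1f/fLysMcre values were below all its Pdcd1f/f values, but the log2 fold change of -0.24 (standard error 0.08) did not pass either (edgeR adjusted p = 0.123).

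Coro1a, an actin-binding coronin of leukocytes, lies 58546 bases before Gdpd3 and was the most abundant of the 7. Libraries without Cre held 10196, 13764 and 14752 of its normalized counts, and those with Cre 11749, 10306 and 12563. The Pdcd1f/f libraries spanned the whole range of the others, and the log2 fold change was -0.16 with a standard error of 0.13 (edgeR adjusted p = 0.465). Kif22, a chromokinesin that moves chromosome arms in mitosis, is the farthest at 252079 bases. Its levels were nearly equal, with 1580, 1649 and 1690 against 1656, 1487 and 1670 normalized counts. The log2 fold change was -0.03 with a 95% interval of -0.19 to 0.14 (edgeR adjusted p = 0.845).

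So 1 of the 6 neighbours passed the threshold, against 5.43% of all genes tested, and it was lower where Gdpd3 was higher. The log2 fold changes of all 6 neighbours were at or below -0.03, with a median of -0.22 against -0.0026 over all genes tested. In CPM, Mapk3, Ypel3 and Taok2 were lower without overlap, 3 of 6 genes, where 14.2% of all genes tested were lower in that way. Every one of the 6 was lowest, within its genotype, in Pdcd1f/f replicate 1, and every one was lowest among the Pdcd1f/fLysMcre libraries in replicate 2.

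In those 2 libraries alone, the departure from the mean of the genotype was negatively related to GC content. Spearman's rho over genes, which are not replicates, was -0.58 in Pdcd1f/f replicate 1, -0.49 in Pdcd1f/fLysMcre replicate 2 and 0.12 to 0.51 in the other 4. Departures from a mean of 3 libraries balance each other within a genotype, so these values cannot say which libraries were the unusual ones. The neighbours had a median GC content of 57.3% in their longest transcripts against 49.2% over all genes tested, from 49.0% in Kif22, 52.6% in Ppp4c and 57.0% in Taok2 to 59.8% in Ypel3, and Gdpd3 has 53.4%. Without Pdcd1f/f replicate 1, 5 of the 6 neighbours passed the threshold, all lower, and 21.6% of all genes did. With both libraries left out, a setting chosen after the data were seen, 5 passed again, against 26.2% of all genes. With offsets for GC content and length, 2 passed, Mapk3 at a log2 fold change of -0.12 (edgeR adjusted p = 0.0372) and Ypel3 at -0.40 (edgeR adjusted p = 5.92e-04), against 18.0% of all genes, and Coro1a turned to 0.01. The part of GC content in the values of the neighbours was not tested beyond these fits. Gdpd3 kept a log2 fold change of 3.08 without Pdcd1f/f replicate 1, 3.03 without both libraries and 3.25 with the offsets.

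**Figure D2:**
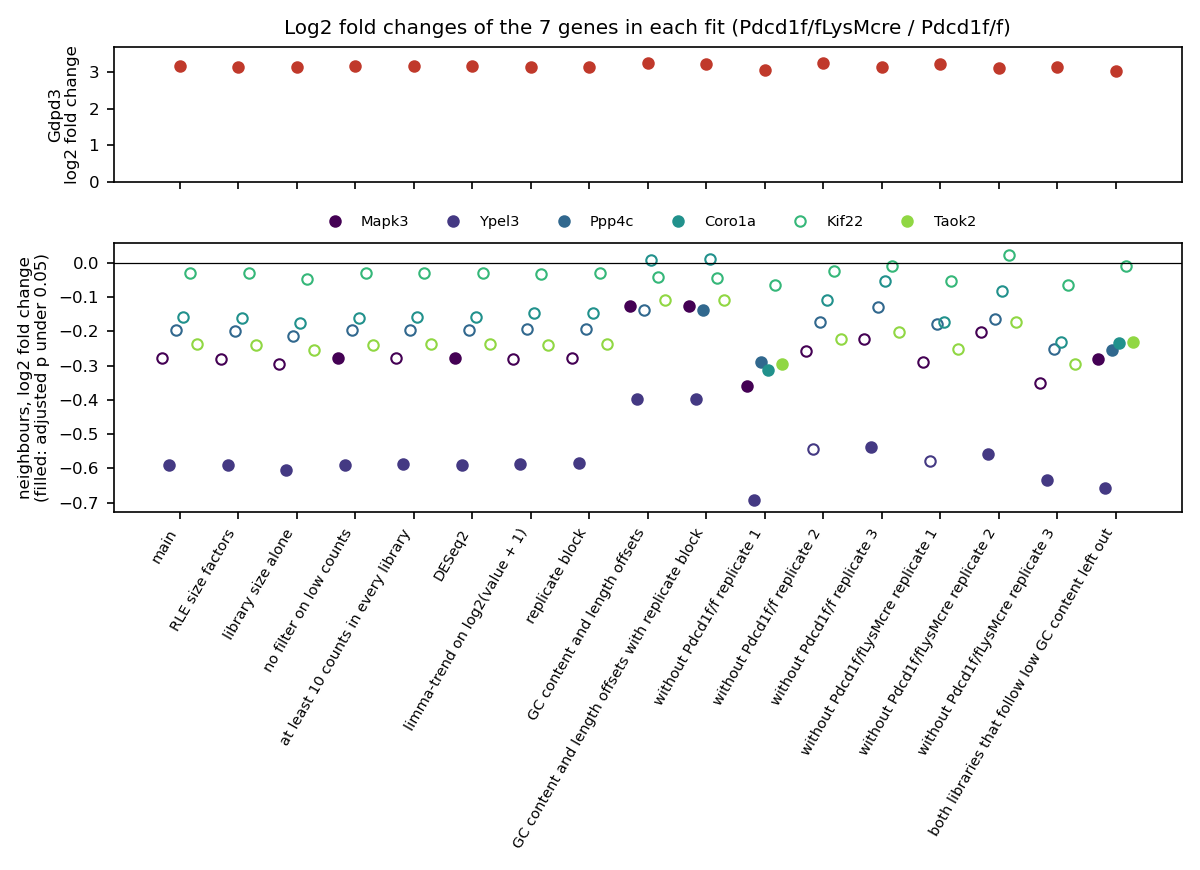
Log2 fold change (Pdcd1f/fLysMcre over Pdcd1f/f, vertical axes) of Gdpd3 (upper panel) and of the 6 neighbours (lower panel, filled where the adjusted p was under 0.05) in the main fit and each alternative fit along the horizontal axis. Gdpd3 stays between 3.03 and 3.27, while Ypel3 lies between -0.69 and -0.40 and the number of filled neighbours depends on which libraries enter.

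Levels were also compared between the genes per exon length, as TPM (counts divided by exon length and scaled to a common total). The length joins the exons of all annotated transcripts of a gene. The order between genes therefore depends on the annotation, which the SD over libraries does not cover. In Pdcd1f/f TAMs the order was Coro1a at 324 ± 54.3, Mapk3 at 173 ± 12.6, Ppp4c at 91.4 ± 8.29, Ypel3 at 35.7 ± 3.46, Kif22 at 23.4 ± 0.315, Taok2 at 13.5 ± 0.592 and Gdpd3 at 2.52 ± 0.306 TPM (SD, n = 3). No neighbours in this order overlapped within their SD. In Pdcd1f/fLysMcre TAMs the first 3 kept their places, with Coro1a at 295 ± 29.2, Mapk3 at 145 ± 14.5 and Ppp4c at 81.0 ± 5.08 TPM. Gdpd3, at 22.9 ± 1.80 TPM, had left the last place to Taok2 at 11.6 ± 0.942 TPM and lay beside Ypel3 at 24.1 ± 1.27 and Kif22 at 23.3 ± 1.43 TPM, and these 3 did not differ beyond their spread. Gdpd3 thus went from a level above 25.6% of the genes tested to one above 60.8% of them.

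**Figure D3:**
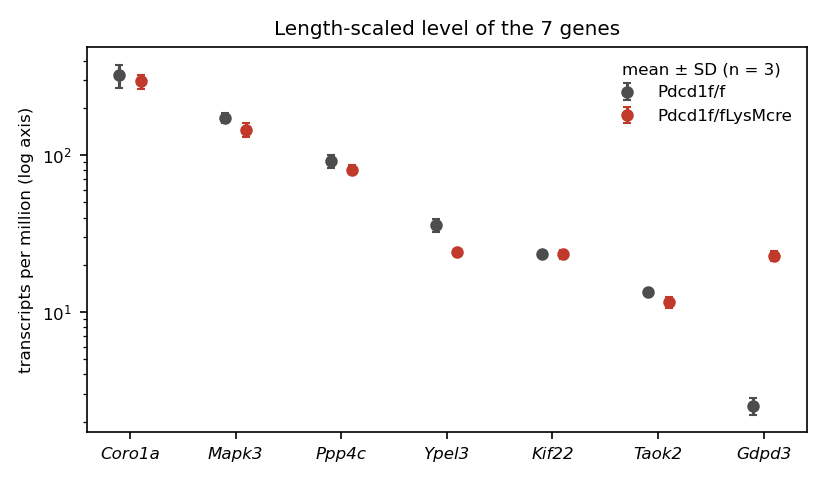
Length-scaled level in TPM (vertical axis, logarithmic) of the 7 genes in Pdcd1f/f (grey) and Pdcd1f/fLysMcre (red) TAMs, as mean ± SD of 3 libraries. Gdpd3 moves from 2.52 TPM, the lowest of the 7, to 22.9 TPM, beside Ypel3 and Kif22.

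The rest of the segment was examined in the same fit. Within 500 kb of Gdpd3 the annotation holds 86 other genes, of which 71 had counts and 47 were tested. Of these 47, 4 passed the threshold (8.51%, against 5.43% of all genes), 2 higher and 2 lower. Without Pdcd1f/f replicate 1, 19 passed (40.4%, against 21.6% of all genes), 17 of them lower. Without any other 1 library, 2 or 3 of 48 tested genes passed (4.17% or 6.25%). Over all genes, 1.51% passed where 2 of the segment did, and 2.38% to 3.56% where 3 did. In the main fit the median log2 fold change was -0.11, with 37 genes below 0 and 10 above it. Over all genes tested it was -0.0026, with 7299 below 0 and 7170 above. The segment is GC-rich, with a median of 55.9% against 49.2%. With the GC and length offsets its median log2 fold change was -0.0175, against 0.0052 over all genes. Without Pdcd1f/f replicate 1 that median was -0.212, against -0.0036 over all genes. With Pdcd1f/fLysMcre replicate 2 left out as well, it was -0.140, against -0.0033. The part of GC content in this median was not tested beyond these fits. No other gene of the segment changed by as much as Gdpd3 in either direction. Their summed level was 3160 to 3782 CPM in the Pdcd1f/f libraries and 3076 to 3619 CPM in the Pdcd1f/fLysMcre libraries, so the ranges overlapped. Over the whole chromosome 52 of 1096 other genes passed (4.74%), 14 higher and 38 lower.

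Besides Ypel3, the genes that passed were Sult1a1, Lat and Eif3c, all before Gdpd3. Sult1a1, a sulfotransferase of phenolic compounds, lies 89901 bases away and fell. Its normalized counts were 94.6, 73.7 and 101 without Cre and 24.1, 20.95 and 19.7 with Cre, with a log2 fold change of -2.05 and a standard error of 0.23 (edgeR adjusted p = 8.30e-04). The groups lay far apart, and this was the one other gene of the segment whose level differed by more than 1 on the log2 scale. It shares 61 exonic bases with Sgf29 on the opposite strand, whose log2 fold change was 0.11 (edgeR adjusted p = 0.601).

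Lat, the adaptor that links the T cell receptor to its signaling cascade, lies 396763 bases away and rose. It had 109, 120 and 122 normalized counts against 222, 228 and 219, again without overlap, with a log2 fold change of 0.94 and a standard error of 0.13 (edgeR adjusted p = 0.00236). Cd3d, Cd3e, Cd3g and Cd8a, which define T cells, were each under 0.22 CPM in every library, and the 5 T cell markers, of which Cd4 made up nearly all, summed to 12.4 to 13.9 CPM in the Pdcd1f/f libraries and 11.0 to 13.0 CPM in the others. Sult1a1 and Lat passed in all 16 alternative fits, with edgeR, DESeq2 and limma. Eif3c, a subunit of a translation initiation factor, lies 199922 bases away and rose, with a mean of 21497 ± 61.6 normalized counts without Cre and 25642 ± 791 with Cre (SD, n = 3), and with a log2 fold change of 0.26 with a standard error of 0.06 (edgeR adjusted p = 0.0287). It passed in 11 of 16 alternative fits, and in 1 of the 6 that left out a library.

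Closest to Gdpd3, within 100 kb, 14 of 25 other genes were tested, 5 of them among the named neighbours, and the other 9 were described together. Apart from Sult1a1, none of them passed. Their log2 fold changes were 0.11 for Sgf29, -0.44 for Slx1b, -0.15 for Bola2, -0.07 for Fam57b, 0.02 for Ino80e, -0.04 for Hirip3, and -0.08 and -0.09 for the 2 gene IDs named Aldoa. Aldoa, a glycolytic enzyme, Fam57b and Hirip3 turned above 0 with the GC offsets. Tbx6, a transcription factor of the early embryo and 5833 bases from Gdpd3, had 0 to 7 counts in each library and was among the 11 that the filter on low counts left out.

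**Figure D4:**
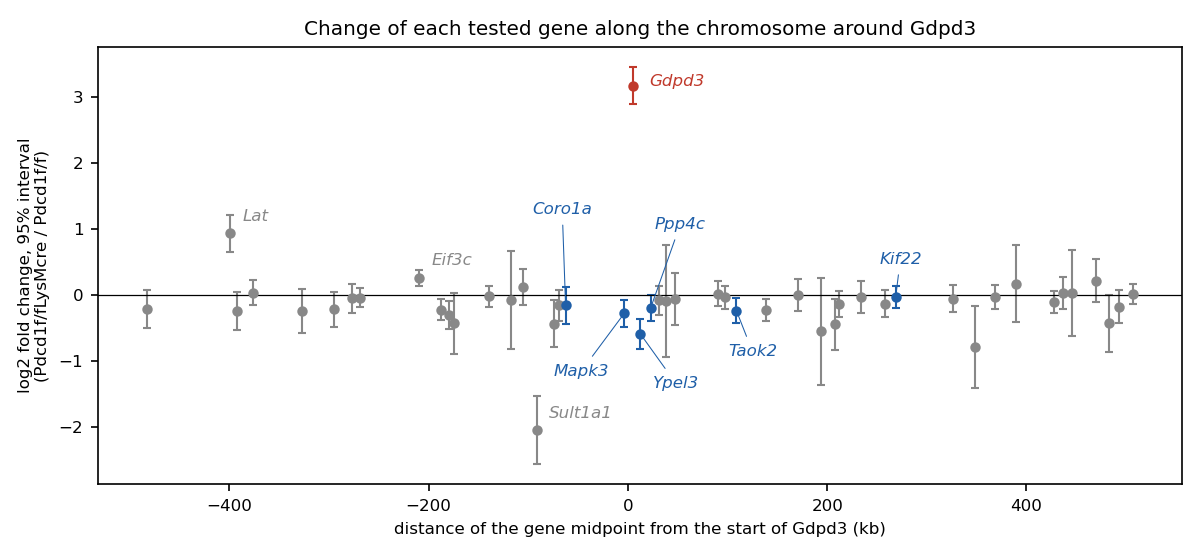
Log2 fold change with its 95% interval (vertical axis, Pdcd1f/fLysMcre over Pdcd1f/f) of each tested gene within 500 kb of Gdpd3, by the distance of its midpoint from the Gdpd3 start in kb (horizontal axis). Gdpd3 (red) stands at 3.17, the 6 named neighbours (blue) lie between -0.59 and -0.03, and of the other genes (grey) Sult1a1 at -2.05 and Lat at 0.94 stand out.

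None of the 3 other genes of the enzyme family that were tested passed the threshold, where 5.43% of all genes did. Gde1 was at 4019 ± 123 and 3817 ± 159 normalized counts in Pdcd1f/f and Pdcd1f/fLysMcre TAMs, Gdpd1 at 894 ± 20.0 and 749 ± 76.3, and Gdpd5 at 1292 ± 220 and 995 ± 169 (SD, n = 3). Their log2 fold changes were -0.07, -0.25 and -0.37, in the same order (edgeR adjusted p = 0.516, 0.129 and 0.155). Gdpd1 passed in 3 of 16 alternative fits, among them the GC offsets (log2 fold change -0.31, edgeR adjusted p = 0.00483), and Gdpd5 in 4 of 16, among them the GC offsets (-0.23, edgeR adjusted p = 0.0449) and the fit without both low-GC libraries (-0.38, edgeR adjusted p = 8.23e-04), always lower, while Gde1 passed in none of the 16. Gdpd2 had 0 to 5 counts in each library and Gdpd4 had 0 in all of them, and the filter on low counts left both out. Per exon length, Gdpd3 was the lowest of the 4 tested members in Pdcd1f/f TAMs, at 2.52 TPM beside 13.4 ± 2.07 for Gdpd5, 26.8 ± 0.757 for Gdpd1 and 166 ± 2.69 TPM for Gde1 (SD, n = 3). With Cre its 22.9 ± 1.80 TPM did not differ beyond the spread from the 22.8 ± 2.32 TPM of Gdpd1, and lay above the 10.5 ± 1.77 TPM of Gdpd5. This order too depends on the annotated exon lengths, which the SD does not cover.

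Genes that make, remodel, degrade and sense LPA were followed as a list of 39 that leaves out Gdpd3. Of 33 tested, 3 were higher (2.42% of all genes tested were) and 1 was lower (3.01% were), with a median log2 fold change of 0.0036. Lpar1, an LPA receptor, rose from 835 ± 47.7 to 1134 ± 82.1 normalized counts (SD, n = 3). Its log2 fold change was 0.44 with a standard error of 0.09 (edgeR adjusted p = 0.0155). It was the 1 of the 6 LPA receptors that passed. Of 8 acyltransferases of the first steps of phospholipid synthesis, 2 rose. Agpat4, which adds a fatty acid to LPA and so consumes it, went from 2795 ± 211 to 3541 ± 258 (log2 fold change 0.34, edgeR adjusted p = 0.0356), and Gpat3, which makes LPA from glycerol 3-phosphate, from 749 ± 36.6 to 960 ± 49.3 (log2 fold change 0.36, edgeR adjusted p = 0.0329). Abhd4, a lipase of N-acyl phospholipids, fell from 1855 ± 111 to 1438 ± 70.4 (log2 fold change -0.37, edgeR adjusted p = 0.0215). No LPA phosphatase or lysophospholipid acyltransferase of the list passed, 0 of 4 and 0 of 6, with edgeR. The list count changed when single libraries were left out. It was 0 without Pdcd1f/f replicate 2 or Pdcd1f/fLysMcre replicate 1. It was 1 without any 1 of Pdcd1f/f replicate 3 and Pdcd1f/fLysMcre replicates 2 and 3, and 10 without Pdcd1f/f replicate 1. Over all genes, 1.51%, 1.51%, 2.38%, 2.50%, 3.56% and 21.6% passed in these fits, in the same order. The share over all genes, 5.43% in the main fit, thus moved in the same direction as the list count.

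**Figure D5:**
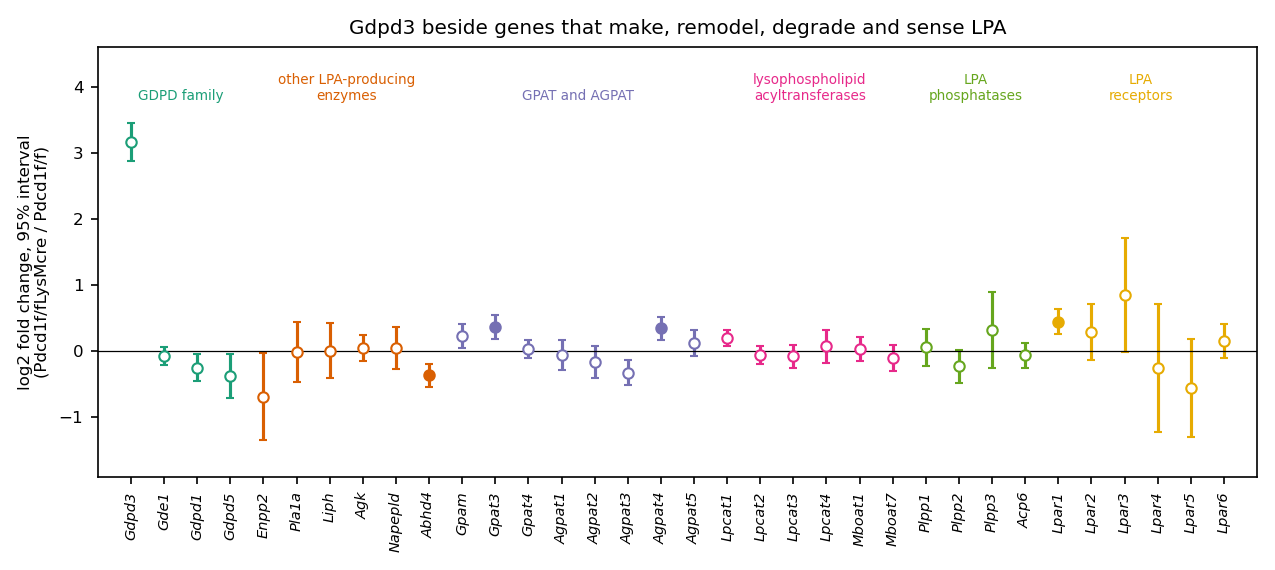
Log2 fold change with its 95% interval (vertical axis, Pdcd1f/fLysMcre over Pdcd1f/f) of Gdpd3 and of the 33 tested genes of the LPA list, grouped by role and filled where the adjusted p was under 0.05 (Gdpd3, chosen for its difference, has an empty symbol). Gdpd3 stands at 3.17, and the 4 filled genes lie between -0.37 and 0.44.

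Relatives and partners of the 6 neighbours were followed in the same way. Of 41 tested genes 2 passed, both lower (4.88%, against 5.43% of all genes). Ksr1, a scaffold of the ERK cascade, fell from 146 ± 2.98 to 90.3 ± 10.2 normalized counts (SD, n = 3), with a log2 fold change of -0.69 (edgeR adjusted p = 0.0277). Coro2b, a coronin, fell from 52.5 ± 14.1 to 20.9 ± 5.60 (log2 fold change -1.31, edgeR adjusted p = 0.0385). Of the relatives and partners of Ypel3, Ppp4c, Coro1a, Kif22 and Taok2, Ypel5 had a log2 fold change of -0.08, Ppp4r2 of 0.31, Coro1b of -0.33, Kif4 of 0.28 and Taok1 of 0.20, and none of these passed (edgeR adjusted p = 0.579, 0.0686, 0.110, 0.0704 and 0.209). This count too changed when single libraries were left out. It was 0 without Pdcd1f/f replicate 2 or 3 or Pdcd1f/fLysMcre replicate 1 or 2, where 1.51% to 2.50% of all genes passed. It was 1 without Pdcd1f/fLysMcre replicate 3 (3.56% of all genes) and 18 without Pdcd1f/f replicate 1 (21.6%). The share over all genes, 5.43% in the main fit, thus moved in the same direction as this count.

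The genes whose pattern over the 6 libraries was most like that of Gdpd3, by the Pearson correlation of log2(normalized count + 1), were Iars2, Atp2a2, Pmp22, Bhlhe40 and Lyz1, with r of 0.998, 0.998, 0.997, 0.997 and 0.997. They lie on chromosomes 1, 5, 11, 6 and 10, and none lies on chromosome 7. Lyz1 begins at 117287797, close to Lyz2, the gene into which Cre is inserted, which ends at 117282321. The log2 fold changes of the 5 were 0.35, 0.20, 0.58, 0.37 and 4.54, in the same order, beside 3.17 for Gdpd3. With 3 libraries in each of 2 groups, the correlation mostly orders genes by how cleanly they separate the genotypes, and it carries no test. The same measure for the neighbours was -0.92 for Ypel3, -0.81 for Taok2, -0.77 for Mapk3, -0.65 for Ppp4c, -0.35 for Coro1a and -0.28 for Kif22, which has the sign of the log2 fold change of each.

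Library totals were 41833823 to 51417209 counts. Pdcd1 had 7 to 16 counts in each library and did not separate the genotypes. Lyz2, into which Cre is inserted, was at 207974 to 225226 normalized counts without Cre and 405 to 465 with Cre, which separated the libraries as labelled. Xist was at 17318 to 26511 against 8530 to 13137 normalized counts, and each of 4 Y-linked genes (Uty, Kdm5d, Ddx3y, Eif2s3y) was higher in every library with Cre, so the sex makeup of the libraries and the genotype cannot be told apart. The 6 macrophage markers were all present and summed to 3928 to 4262 CPM in Pdcd1f/f and 3369 to 3503 CPM in Pdcd1f/fLysMcre libraries, with Adgre1, Csf1r and Mertk lower. The 6 neutrophil markers summed to 138 to 142 against 114 to 118 CPM, with Csf3r and Mmp8 lower, Retnlg, S100a8 and S100a9 not past the threshold (log2 fold changes of -0.95, 0.23 and 0.12, edgeR adjusted p = 0.110, 0.220 and 0.412) and Ly6g at 0.063 CPM or less in every library. The 3 endothelial markers summed to 39.8 to 42.5 against 31.9 to 34.4 CPM, with Pecam1 lower and Cdh5 and Kdr at log2 fold changes of -0.0090 and 0.02 (edgeR adjusted p = 0.972 and 0.917). The 4 dendritic cell markers summed to 2.20 to 3.03 against 4.003 to 4.21 CPM. Of these, Flt3, Zbtb46 and Cd209a were tested and none passed (edgeR adjusted p = 0.137, 0.120 and 0.388). The 4 B cell markers summed to 3.599 to 4.47 against 2.55 to 3.13 CPM, nearly all Cd79b, which did not pass (edgeR adjusted p = 0.0670). Whether these marker sums bear on the difference of Gdpd3 was not tested. The 6 epithelial markers summed to 8.07 to 9.95 against 7.97 to 9.46 CPM and overlapped between the genotypes, as did the 3 NK cell markers (0.455 to 0.765 against 0.293 to 0.558 CPM) and the 5 fibroblast or tumour markers (59.8 to 65.6 against 56.6 to 62.7 CPM, with Col1a2 lower).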

How the data were processed

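RNA of TAMs from 3 Pdcd1f/f and 3 Pdcd1f/fLysMcre libraries was sequenced from stranded polyA libraries as paired-end 42-nt reads. The authors checked reads with FastQC 0.11.5, removed adapters with cutadapt 2.5, aligned to GRCm38 with STAR 2.7.3a and counted on Ensembl genes with featureCounts of Subread 1.6.2, and deposited raw counts per gene. The strand setting and the handling of multi-mapped reads are not given in the sources used here. The second deposited table is a signal, the counts of 16552 genes divided by DESeq2 1.24.0 size factors of 0.895 to 1.08. Group and replicate number came from the labels.

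Raw counts were tested with edgeR 4.0.16 (R 4.3.3, filterByExpr with a minimum count of 10, TMM, robust glmQLFit, two-sided glmQLFTest, Benjamini-Hochberg adjustment over 14469 genes, threshold 0.05). With 3 against 3 libraries, an exact permutation test of 1 gene cannot give p under 0.1. Positions, exon lengths and GC content came from GENCODE M21, which is older than the annotation the authors counted on, and promoter windows from RefSeq. TPM was computed from counts and exon length over all transcripts of a gene. Totals of 41833823 to 51417209 counts limited only genes with few counts, and CPM divides by these totals. Alternatives were RLE size factors, library size alone, no filter, at least 10 counts in every library, DESeq2 1.42.0, limma-trend (limma 3.58.1) on log2(value + 1), the replicate block, loess offsets for GC content and length, the 6 fits without 1 library, a stricter threshold of 0.01 and other windows. The scripts were tested on simulated data.

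The members and lists were chosen with earlier results of these data known. Named genes were the 7 members, genes within 100 kb of Gdpd3 or past the threshold within 500 kb, Pdcd1, Lyz2, Xist and 4 Y-linked genes, list genes past the threshold, the Gdpd family, 1 closest relative or partner of each neighbour, and the 5 genes most like Gdpd3. 1 of these relatives is not reported here.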

Additional observations from a re-analysis of the deposited data

How the results depend on the processing

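The log2 fold change of Gdpd3 kept its direction in all 16 alternative fits, at 3.08 to 3.27 when 1 library was left out. Of the 6 neighbours, 1 passed the threshold. The number was 2 without the filter on low counts, 2 with DESeq2, 2 with GC offsets, 3 with GC offsets and the replicate block, 5 with both low-GC libraries left out and 0 to 5 when 1 library was left out (0 without Pdcd1f/f replicate 2 or Pdcd1f/fLysMcre replicate 1, 5 without Pdcd1f/f replicate 1). Coro1a turned to 0.00771 with GC offsets and 0.01088 with GC offsets and the replicate block, and Kif22, at -0.065 to 0.02281 when 1 library was left out, turned to 0.02281 without Pdcd1f/fLysMcre replicate 2. The cause was not tested.

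Of the 47 tested genes within 500 kb, 4 passed, against 8 with GC offsets, 9 with GC offsets and the block, 19 with both low-GC libraries left out and 2 to 19 when 1 library was left out, where 19 was reached without Pdcd1f/f replicate 1 and 17 of the 19 were lower. Of the LPA list 4 passed, against 10 with GC offsets, 8 with GC offsets and the block, 12 with both libraries left out, 0 at a threshold of 0.01 and 0 to 10 when 1 library was left out. Of the partner list 2 passed, against 9 without the filter, 9 with DESeq2, 4 with the replicate block, 12 with GC offsets, 12 with GC offsets and the block, 20 with both libraries left out, 0 at a threshold of 0.01 and 0 to 18 when 1 library was left out. Over all genes 786 passed, against 1951 without the filter, 1517 with DESeq2, 2602 with GC offsets, 2714 with GC offsets and the block, 3757 with both libraries left out, 283 at 0.01 and 222 to 3181 when 1 library was left out.

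The main fit did not pair libraries by replicate number. Deviations of same-numbered libraries from the mean of the genotype correlated at -0.013, -0.097 and 0.22. The highest correlation, 0.24, was between Pdcd1f/f replicate 1 and Pdcd1f/fLysMcre replicate 2. Such deviations balance each other within a genotype, so these values cannot say whether the numbers pair the libraries. With the replicate block alone 1027 of all genes passed (7.10%), and Ypel3 was again the 1 neighbour that did. The filter on low counts left out Gm9967, Tbx6, Gdpd2 and Gdpd4. At these depths 3 counts come to 0.0583 to 0.0717 CPM.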
